A study of Mus musculus with 2 samples.

Results

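The genes described here encode proteins of the postsynaptic density and of signalling in dendritic spines. They are 34 genes chosen by symbol, and all 34 were found among the 55536 gene entries of the deposited tables. The rule uses no measured value, although the members were chosen with earlier results of these data known.

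The postsynaptic density is a protein-rich layer beneath the membrane of excitatory synapses, most of which sit on small protrusions of the dendrite called spines. Scaffold proteins of the membrane-associated guanylate kinase (MAGUK) family hold glutamate receptors there through their PDZ domains, which bind the last residues of partner proteins. Calcium that enters the spine acts through calmodulin on kinases and on the phosphatase calcineurin, while regulators of small GTPases and the WAVE complex control the actin that gives the spine its shape.

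Total RNA depleted of ribosomal RNA was sequenced from the left cerebral cortex of 2 male mice of the strain B6CASTF1/J, a first-generation cross of C57BL/6J and CAST/EiJ, at 8 to 10 months of age. Each library was made from 300 ng of RNA with ERCC spike-ins, which are synthetic RNAs added in known amounts. The labels give the animals the numbers 2 and 4 and call them biological replicates 1 and 2 of 1 group, with the same donor label for both. There is no second condition, so every comparison is between genes, between transcript forms or between the 2 animals, and 2 animals cannot give an exact sign-flip p below 0.5.

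Expected counts assigned to genes, without ribosomal RNA genes, summed to 24688669 in replicate 1 and 27440152 in replicate 2. Of the 6 markers of excitatory neurons and the 10 of striatal projection neurons, none was at 0 in both animals. The excitatory markers summed to 1610 and 1677 TPM (a level relative to all transcripts of a library and corrected for their length) and the striatal ones to 845.5 and 898.8 TPM. The animals differed in 2 other lists. The 8 choroid plexus markers summed to 751 TPM in replicate 1 and 9.27 TPM in replicate 2, and all 13 immediate early genes were more than 25% higher in replicate 1, with a median log2 ratio of 1.18. The part of these differences in the values of single members was not tested. In bulk tissue, fewer cells of a type and less RNA per cell cannot be told apart.

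All 34 genes were well expressed. Their levels ran from 49.0 TPM for Arhgef7 in replicate 2 to 652 TPM for Nrgn in replicate 2, and the median was 137 TPM in replicate 1 and 139 TPM in replicate 2. Over the 12994 protein-coding genes with at least 1 TPM, the medians were 16.02 and 16.39 TPM. By mean level, the lowest member stood above 82.7% of those genes, 25 members were in the top 10%, 18 in the top 5% and 5 in the top 1%. Together the 34 genes held 1.31% and 1.32% of all protein-coding TPM. The order of the levels was close to the same in both animals, with 13 members at the same position and no member moving by more than 3 positions. Of the 33 pairs of neighbours in the order, 19 were separate in both animals and 14 overlapped, among them Camk2n1 with Prkcb, Ddn with Ppp3r1, Kalrn with Arhgap32, and Arhgef7 with both Lrrc7 and Begain.

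**Figure D1:**
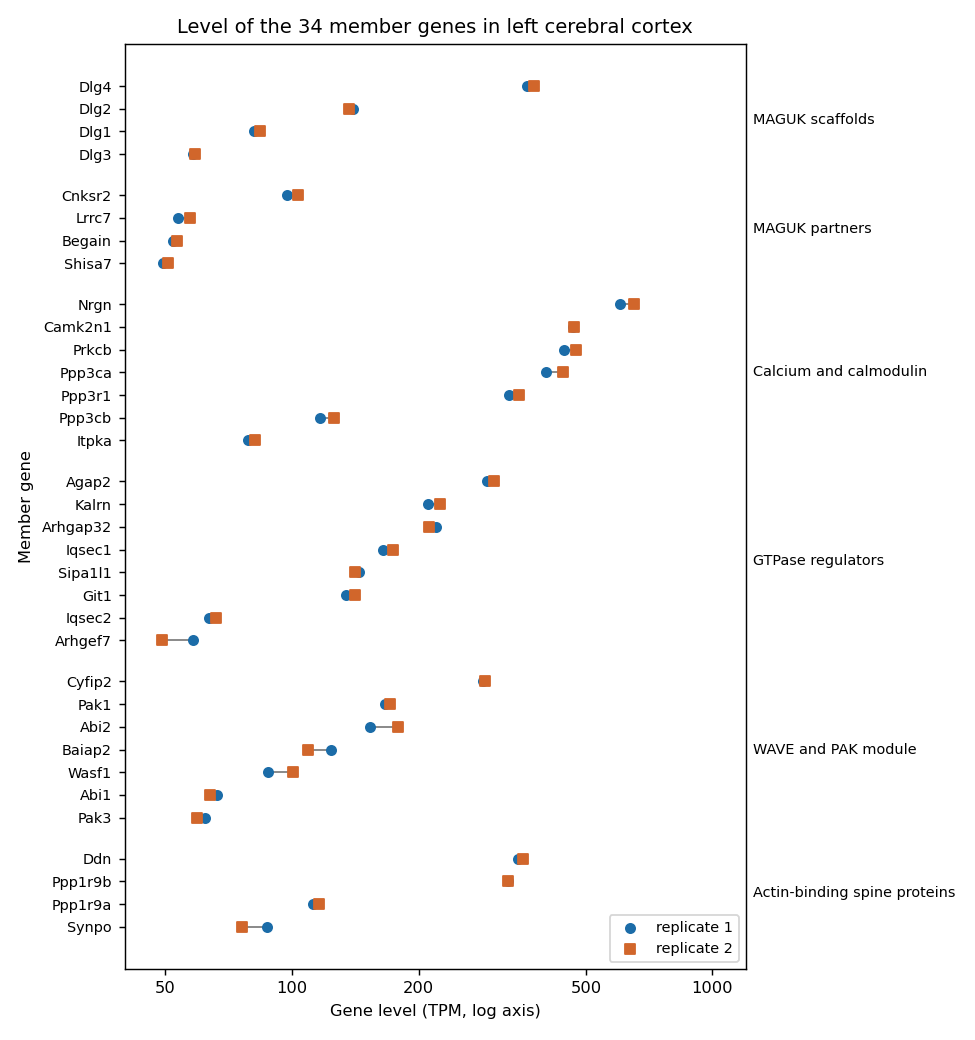
Level of each member gene in TPM on a log axis, grouped by role, with 1 point per animal (circle, replicate 1; square, replicate 2) and a grey line joining them. The points of a gene lie close together compared with the spread between genes, from 49.0 TPM for Arhgef7 in replicate 2 to 652 TPM for Nrgn in replicate 2.

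The 4 MAGUK scaffolds of the Dlg family were led by Dlg4, which encodes PSD-95, the main scaffold of mature excitatory synapses. Dlg4 (chr11:70016942-70047522, plus strand, mm10) had a level of 362 TPM in the first animal and 377 in the second. Dlg2, which encodes PSD-93, was at 140 and 137 TPM. Dlg4 thus held 56.4% and 57.4% of the family's summed TPM, and Dlg2 21.8% and 20.9%. Dlg1, encoding SAP97, a scaffold also found in epithelia, followed at 81.0 and 84.1 TPM. Dlg3, encoding SAP102, a scaffold prominent early in synapse formation, was lowest at 58.2 and 58.9 TPM. The values of the 4 genes did not overlap between the animals, and each step down the order was larger than the difference between animals. The Dlg4 to Dlg2 ratio was 2.67 ± 0.12 (SD, n = 2), Dlg2 to Dlg1 was 1.68 ± 0.069 and Dlg1 to Dlg3 was 1.41 ± 0.026.

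The Dlg transcripts differed in short exons of their coding part. Inclusion is given here as the TPM of transcripts that hold an exon over the TPM of those that hold it or splice over it. For Dlg2 and Dlg3, an exon of 46 bases was present in nearly all such transcripts. Its inclusion was 96.2% and 96.0% for Dlg2 and 97.6% and 96.3% for Dlg3 in the first of the 2 deposited quantifications. In the second quantification it was 85.7% and 83.7% for Dlg2, and for Dlg3 it was 95.2% in replicate 1, with no transcript that splices over it in replicate 2. The transcripts that splice over the 46-base exon held a 100-base exon instead, at 3.85% and 4.05% for Dlg2 in the first quantification. For Dlg3 such a 100-base exon was at 2.40% and 3.67%. The 46-base exons are shown because 36 of their 46 bases (78.3%) are the same in both genes. Capitals mark the bases that differ, and the sequences are the mRNA strand of mm10, 5′ to 3′, at chr7:92418088-92418133 (plus strand) for Dlg2 and chrX:100809862-100809907 (plus strand) for Dlg3.
Dlg2 46-base exon: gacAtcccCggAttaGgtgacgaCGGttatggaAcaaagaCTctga
Dlg3 46-base exon: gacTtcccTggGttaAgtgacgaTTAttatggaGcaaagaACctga

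Dlg1 had a 34-base exon at 80.6% and 87.0% inclusion (83.6% and 81.6% in the second quantification). The form without it, Dlg1-202, held a 100-base exon in its place, at 19.4% and 13.0% in the first quantification. A 36-base exon of Dlg1 was at 35.1% and 36.3% (36.2% and 39.7% in the second). Its last 21 bases also served as an exon of their own, at 9.42% and 13.6%. Most Dlg1 transcripts with a choice thus held the 34-base exon, and a minority held the 36-base form. The 34-base and 36-base exons are shown in capitals with 12 bases of the adjoining exons on each side, as joined in the spliced transcript. They lie at chr16:31847636-31847669 and chr16:31854653-31854688, both on the plus strand.
Dlg1 34-base exon: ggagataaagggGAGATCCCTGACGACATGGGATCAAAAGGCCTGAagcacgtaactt
Dlg1 36-base exon: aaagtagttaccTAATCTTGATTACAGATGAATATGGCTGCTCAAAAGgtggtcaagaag

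A further exon of 54 bases separated Dlg2 from Dlg3. It was at 97.8% in each animal for Dlg2 (95.5% and 95.4% in the second quantification) and at 71.3% and 65.1% for Dlg3 (70.8% and 61.0%). The exon was nearly constant in Dlg2 transcripts and absent from a minority of Dlg3 transcripts, with no overlap between the genes in any reading. It lies at chr7:91733091-91733144 in Dlg2 and chrX:100771307-100771360 in Dlg3, both on the plus strand, and 31 of its 54 bases (57.4%) are the same in both. Capitals again mark the bases that differ.
Dlg2 54-base exon: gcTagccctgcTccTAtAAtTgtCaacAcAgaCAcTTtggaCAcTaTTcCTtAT
Dlg3 54-base exon: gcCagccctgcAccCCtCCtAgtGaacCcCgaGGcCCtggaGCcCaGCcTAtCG

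Dlg3 also had a 42-base exon at 47.5% and 51.0% (38.8% and 42.0% in the second quantification). An exon of 42 bases is annotated in Dlg2 as well, and there it was listed at 0 in all 4 readings. The start of the reading frame varied too. For Dlg2, 87.3% and 86.5% of coding TPM used the start shared by Dlg2-201 and Dlg2-204, with 86.5% and 85.8% in the second quantification. For Dlg1, 67.2% and 67.0% used the start of the longer forms and 32.9% and 33.0% that of Dlg1-204. For Dlg4 the quantifications disagreed: the start of Dlg4-203, which encodes 724 residues, took 58% of coding TPM in both animals in the first and 35% and 38% in the second, so the main Dlg4 start is not settled here. The longest complete Dlg reading frames encode 927 (Dlg1), 957 (Dlg2), 849 (Dlg3) and 767 residues (Dlg4), with 65.9% (Dlg3 and Dlg4) to 75.3% (Dlg1 and Dlg2) identical residues between pairs.

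The 4 partners of the MAGUKs were lower, with medians of 52.7 and 55.3 TPM. Cnksr2, a scaffold of Ras signalling at synapses, was at 97.3 and 103.4 TPM. Lrrc7, encoding densin-180, was at 53.5 and 57.2 TPM. Begain, a protein that binds PSD-95, was at 52.0 and 53.4 TPM, and Shisa7, a transmembrane partner of synaptic receptors, at 49.3 and 50.6 TPM. Cnksr2 stood apart from the other members of this group in both animals. It held 97.8% and 97.9% of the TPM of the 3 Cnksr genes, while Lrrc7 held only 51.5% and 51.1% of its family, ahead of Erbin at 28.9 and 35.2 TPM. Shisa7 held 56.2% and 57.9% of a family of 4, ahead of Shisa9 at 29.0 and 28.2 TPM.

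Cnksr2 was made in 2 forms with different ends. The form of 3096 coding bases (Cnksr2-201) took 60.8% and 56.5% of coding TPM and the form of 2688 bases (Cnksr2-202) 39.2% and 43.5%. The second quantification gave 60.3% and 55.1% for the longer form. For Lrrc7, 77.6% and 82.1% of coding TPM ended at the distal stop. For Shisa7, a 51-base exon was at 70.7% and 67.0% (64.8% and 60.1% in the second quantification), and its leading transcript was Shisa7-202 in 3 of the 4 readings and Shisa7-203 in the other.

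The 7 genes of calcium and calmodulin signalling had the highest median level of the 6 roles, at 403 and 441 TPM. Nrgn encodes neurogranin, a small protein that binds calmodulin when calcium is low. At chr9:37544492-37552904 (minus strand), it was the highest member in both animals, at 603 and 652 TPM, and stood above 99.6% of expressed protein-coding genes. Camk2n1, an inhibitor protein of the kinase CaMKII, was at 466 and 468 TPM (467 ± 1.44, SD, n = 2), from 1 annotated transcript. Camk2n1 was at 0.448 and 0.434 times the level of Camk2a, which encodes a subunit of CaMKII, and held 88.1% and 87.6% of the TPM of the Camk2n pair. Nrgn and Camk2n1 both encode 78 residues, the shortest proteins of the set. The longest that could be read from a leading form, Sipa1l1, has 1782. The letter pattern of the IQ calmodulin-binding motif (F, I, L or V, then Q, 3 of any residue, R or K, then G, 3 of any, R or K) was found in the leading form of 1 of 33 members that could be read, Nrgn, and in 0.788% of 12442 expressed protein-coding genes. Only an exact match was counted. Members without one, Iqsec1 and Iqsec2 among them, may still hold a variant of the motif.

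Prkcb, encoding protein kinase C beta, was at 444 and 475 TPM. Prkcb is known to be spliced into beta I and beta II, which differ in their last exon. Prkcb-202, the form of 673 residues, took 87.9% and 88.9% of coding TPM, and Prkcb-201, of 671 residues, took 12.2% and 11.1%. The second quantification gave 85.6% and 89.9% for Prkcb-202, so it was the main coding form in all 4 readings. The gene's TPM was not all coding. Transcripts annotated as noncoding made up 48.4% and 49.8% of it, compared with medians of 5.17% and 5.95% over the members. Most of that was Prkcb-208, a transcript of 955 bases annotated as a retained intron, at 182 and 202 TPM, beside 201 and 212 TPM for Prkcb-202. The second quantification gave Prkcb-208 37.8% and 41.3% of the gene's TPM. Prkcb was 1 of 6 members with more than 20% noncoding TPM in both animals. The others were Iqsec1 (37.25% and 42.6%), Dlg2 (31.1% and 28.3%), Kalrn (25.95% and 23.2%), Shisa7 (24.4% and 20.4%) and Arhgap32 (22.5% and 20.2%). Gene levels, ratios and family shares include this noncoding TPM.

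Calcineurin is a calcium-activated phosphatase of a catalytic and a regulatory subunit. Ppp3ca, the main catalytic gene, was at 403 and 441 TPM, and Ppp3cb, the other neuronal one, at 116 and 126 TPM. The ratio of the 2 was 3.48 ± 0.031 (SD, n = 2), and together they held 98.1% and 98.2% of the TPM of the 3 catalytic genes. Ppp3r1, the regulatory subunit, was at 329 and 347 TPM, with 99.96% and 99.88% of its pair. Ppp3ca was at 1.22 and 1.27 times Ppp3r1. A share of Ppp3r1's exonic bases, 14.3%, overlaps Wdr92 on the same strand, which was at 4.91 and 3.74 TPM. Itpka, a kinase of inositol trisphosphate that also bundles actin in spines, was the lowest of the group at 78.5 and 81.9 TPM, with 83.0% and 85.2% of its family.

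Both catalytic genes had a cassette exon of 30 bases, which adds 10 residues when included. For Ppp3ca its inclusion was 52.9% and 55.0% (54.6% and 53.7% in the second quantification). For Ppp3cb it was 74.3% and 79.5% (61.0% and 70.1%). The exon was included more often in Ppp3cb than in Ppp3ca in every reading, and the size of that gap differed between quantifications. For Ppp3ca the value compares 1 transcript of 2194 bases with the exon and 1 of 4758 bases without it. It therefore also rests on how reads were shared over their other differences. For Ppp3cb, 1 transcript spliced over the exon. The exons are shown because 26 of the 30 bases (86.7%) are the same, while the gap in inclusion was seen in both animals. Capitals mark the bases that differ. They lie at chr3:136932011-136932040 (plus strand) and chr14:20503247-20503276 (minus strand).
Ppp3ca 30-base exon: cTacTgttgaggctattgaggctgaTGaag
Ppp3cb 30-base exon: cCacAgttgaggctattgaggctgaAAaag

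The 8 regulators of small GTPases had medians of 155 and 158 TPM. Agap2, which promotes hydrolysis of GTP by Arf proteins, was the highest at 291 and 303 TPM. Kalrn, encoding kalirin, an exchange factor for Rac1 and RhoA, was at 211 and 225 TPM, and Arhgap32, a GTPase-activating protein, at 220 and 211 TPM. Agap2 was above both in each animal, while Kalrn and Arhgap32 overlapped. Iqsec1, an exchange factor for Arf6, was at 165 and 174 TPM, and its relative Iqsec2 at 63.4 and 66.0 TPM, or 0.385 and 0.379 times Iqsec1. In the second quantification that ratio was 0.48 and 0.588. Sipa1l1, a GTPase-activating protein for Rap, was at 145 and 141 TPM. Git1, a scaffold that brings the exchange factor Arhgef7 (beta-Pix) to spines, was at 134 and 141 TPM, and Arhgef7 itself at 58.2 and 49.0 TPM.

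The families of these regulators were shared to different degrees. In the first quantification, the Agap family was the only one of those with other genes in which members held under 50%, with Agap2 at 43.5% and 44.7%, beside Agap3 at 239 and 239 TPM and Agap1 at 139 and 136 TPM. The TPM of Agap3 came from 4719 and 5141 expected counts, beside 28299 and 32036 for Agap2. The share of Agap2 thus depends on the length correction in TPM. In the second quantification Lrrc7 was also below 50% in replicate 1, at 49.8% of its family, and above it in replicate 2, at 53.8%. Arhgef7 held 90.8% and 85.9% of the Pix pair and Git1 87.8% and 85.7% of the Git pair. Kalrn held 66.7% and 70.3% of its pair with Trio. Over the 20 families that include genes outside the set and were analysed, the members held more than 50% in 19, at least 80% in 13 and at least 90% in 7.

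**Figure D2:**
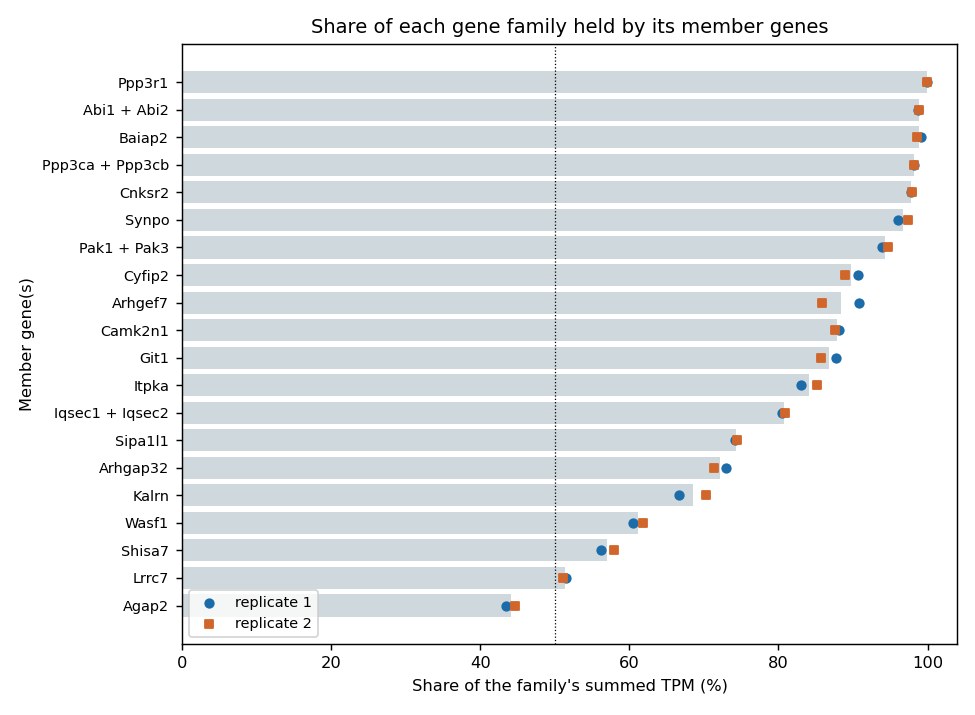
Share of a gene family's summed TPM, in percent, held by its member genes. Bars are the mean of the 2 animals, points are the animals (circle, replicate 1; square, replicate 2) and the dotted line is 50%; shares run from 44.1% for Agap2 to 99.9% for Ppp3r1, and the Dlg and Ppp1r9 families, all of whose genes are members, are not drawn.

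Kalirin is known in forms of very different length. The stop shared by Kalrn-202, 204, 205, 206 and 207 took 74.9% and 74.6% of coding TPM (74.0% and 75.2% in the second quantification). The stop of the full-length reading frame of 8892 bases, shared with Kalrn-212, took 10.2% and 7.42%. The start used by Kalrn-203, 204, 205 and 206 took 45.4% and 49.3%, and that of Kalrn-202 and 207 took 35.7% and 32.2%. The end of most coding Kalrn transcripts was thus read alike by both quantifications. The single leading transcript was not: it was Kalrn-207 at 22.4% and 19.5% of the gene in the first and Kalrn-204 in the second.

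Iqsec1 and Iqsec2 each ended in 2 main ways. For Iqsec1, 62.8% and 61.5% of coding TPM ended at the stop of Iqsec1-210 and 35.6% and 37.2% at that of Iqsec1-201. Its 45-base exon was at 61.7% and 60.1% (59.3% and 62.6% in the second quantification). That value compares only Iqsec1-210, with the exon, and Iqsec1-201, without it, which also differ in their starts and stops. The exon value is therefore not separate from the stop shares. For Iqsec2, an exon of 50 bases, which is not a multiple of 3, was at 87.1% and 91.7% (85.9% and 89.9%). The stop of the longer Iqsec2 frame took the same 87.1% and 91.7%. The 50-base exon lies at chrX:152222283-152222332 (plus strand) and is shown in capitals between 12 bases of each adjoining exon, since its presence goes with the end of the protein.
Iqsec2 50-base exon: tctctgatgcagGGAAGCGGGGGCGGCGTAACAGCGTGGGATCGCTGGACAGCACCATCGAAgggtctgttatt

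Git1 kept a 27-base exon in 94.9% and 95.1% of transcripts with the choice. Sipa1l1 had 3 coding stops, of which the distal one took 68.6% and 69.7%, and its leading transcript was Sipa1l1-201 or Sipa1l1-202 depending on the reading. The coding forms of Arhgef7 differed between the animals: an 85-base exon was at 81.4% in replicate 1 and 96.6% in replicate 2, and at 73.6% and 91.6% in the second quantification. The only coding form that splices over this exon, Arhgef7-209, has 732 bases and was at 8.31 and 1.28 TPM. The difference thus rests on 1 short transcript whose deposited TPM intervals in the first quantification overlapped between the animals. The exon was singled out after its values were seen.

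**Figure D3:**
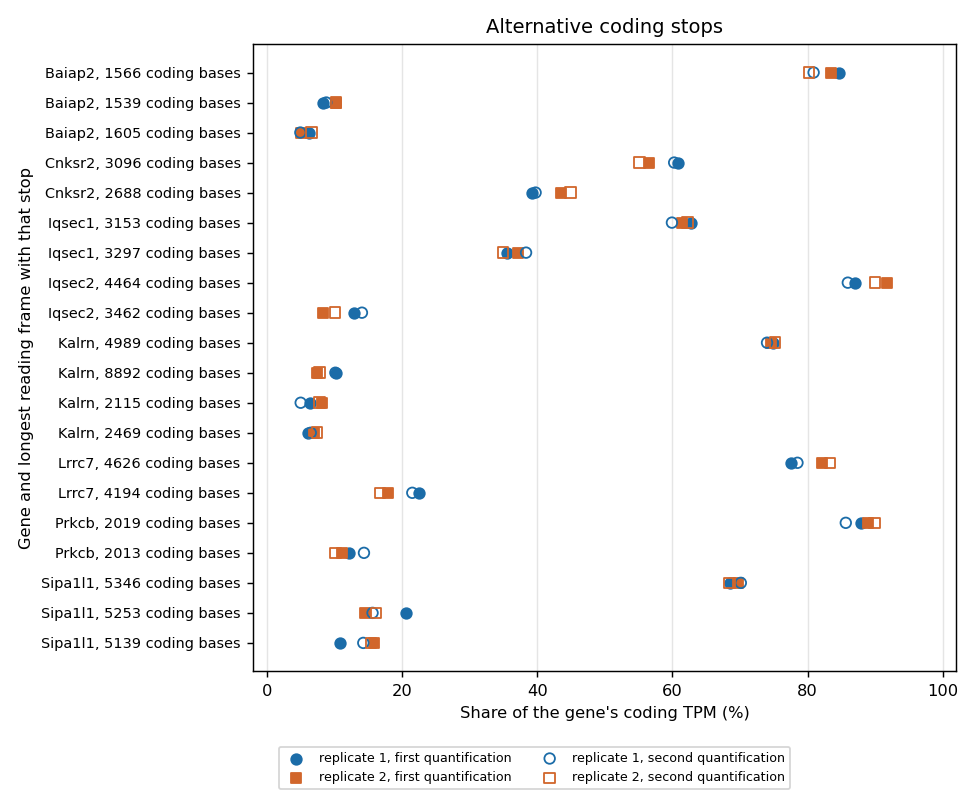
Share of a gene's coding TPM, in percent, that ends at each coding stop, named by the longest reading frame with that stop, for 8 members with more than 1 stop; stops under 5% are left out. Filled points are the first and open points the second quantification (circle, replicate 1; square, replicate 2), and each of the 8 genes keeps the same leading stop in its 4 readings.

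Of the 7 genes of the WAVE complex and the p21-activated kinases, Cyfip2 was the highest, at 284 and 287 TPM. Cyfip2 is the WAVE subunit that binds Rac1, and it held 90.6% and 88.9% of its pair with Cyfip1. Wasf1, encoding WAVE1, which activates the Arp2/3 actin nucleator, was at 87.9 and 100.4 TPM, so Cyfip2 was at 3.24 and 2.86 times Wasf1. Wasf1 held 60.5% and 61.9% of its family, with Wasf3 next at 42.0 and 42.5 TPM. Abi2 and Abi1, adaptors of the same complex, were at 153 and 179 TPM and at 66.2 and 63.9 TPM. Baiap2, encoding IRSp53, which bends membranes and binds actin regulators, was at 124 and 109 TPM and held 99.1% and 98.5% of its family. Pak1 and Pak3, kinases activated by Rac and Cdc42, were at 166 and 171 TPM and at 62.1 and 59.4 TPM. Pak1 was at 2.68 and 2.89 times Pak3, and together they held 93.9% and 94.7% of the group I Pak genes, leaving Pak2 at 14.8 and 13.0 TPM.

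Abi1 and Abi2 both had a short exon that follows a similar stretch of mRNA. The 15-base Abi1 exon was at 83.8% and 82.1% (76.7% and 74.8% in the second quantification). The 18-base Abi2 exon was at 64.8% and 63.5% (72.2% and 63.3%). A 45-base exon of Pak3 was at 43.4% and 50.9% (45.3% and 45.5%) over all coding forms with the choice. Short forms weigh in this value. Pak3-208, of 701 bases and with the exon, was at 14.38 and 5.19 TPM in the first quantification. Pak3-209, of 716 bases and without it, was at 9.39 and 12.14 TPM. Pak3-201, of 8348 bases and with the exon, was at 4.69 and 13.35 TPM. The use of the Pak3 exon in long forms is therefore not settled here. The Abi1, Abi2 and Pak3 exons are each shown in capitals between 12 bases of the adjoining exons, to let the flanks of the Abi exons be compared. They lie at chr2:22963214-22963228 (minus strand), chr1:60438942-60438959 (plus strand) and chrX:143713894-143713938 (plus strand).
Abi1 15-base exon: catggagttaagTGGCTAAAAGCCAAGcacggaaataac
Abi2 18-base exon: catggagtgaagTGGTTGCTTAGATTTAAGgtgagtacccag
Pak3 45-base exon: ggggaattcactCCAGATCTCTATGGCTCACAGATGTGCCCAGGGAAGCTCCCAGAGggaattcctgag

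Exon inclusion in this group sums TPM estimated for several transcripts, so it can agree between readings where single transcripts do not. The leading transcript differed between readings for Abi1, Abi2, Wasf1 and Pak3. For Wasf1, whose 2 transcripts encode the same 559 residues, Wasf1-202 took 84.4% and 59.9% in the first quantification and 41.9% and 79.9% in the second. The direction of the animal difference thus reversed between quantifications. In all, 26 of the 34 members had 1 leading transcript in all 4 readings, and in 19 of these 26 that transcript held over 50% of the gene's TPM in both animals in the first quantification.

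The 4 actin-binding spine proteins were led by Ddn, encoding dendrin, at 345 and 355 TPM, and Ppp1r9b, encoding spinophilin, which brings protein phosphatase 1 to spines, at 327 TPM in both animals. Ppp1r9a, encoding the related neurabin, was at 112 and 116 TPM. Synpo, encoding synaptopodin, a protein of the spine apparatus, was at 87.4 and 76.0 TPM. Ddn and Ppp1r9b were each more than 2-fold above the other pair. The Ppp1r9b to Ppp1r9a ratio was 2.91 and 2.82, although their longest frames share only 54.3% of aligned residues. Synpo held 96.0% and 97.3% of its family.

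Over the whole set, 55 cassette exons of the coding part were annotated in 20 members. Of them, 21 in 14 members had 60 bases or fewer and were read from transcripts holding at least 50% of the gene's TPM. Of those 21, 14 exons in 11 members were between 5% and 95% included by the mean of both quantifications. Of the 14, 12 were a multiple of 3 bases long. These exon sets were chosen after transcript values were seen, so the counts are a description. The animals differed by at most 7.49 percentage points at any of the 21 exons in the first quantification. The quantifications differed by at most 11.4 points in the mean, for the 46-base exon of Dlg2.

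**Figure D4:**
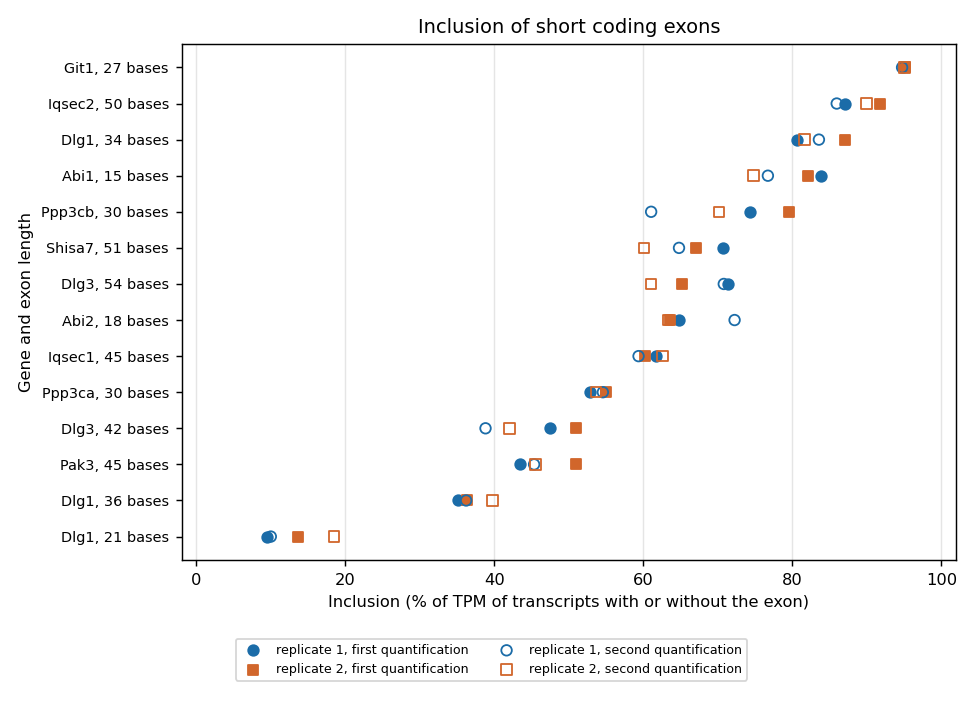
Inclusion, in percent, of the 14 short coding exons between 5% and 95%, named by gene and length. Filled points are the first and open points the second quantification (circle, replicate 1; square, replicate 2); Git1 is near 95% in all 4 readings and the 21-base Dlg1 exon is lowest, at 9.42% and 13.6% in the first.

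A feature that the choice by symbol did not use is the end of the protein. The class I PDZ ligand, defined as serine or threonine at the third residue from the end and valine, isoleucine or leucine at the end, was found in the leading coding form of 4 of 34 members, compared with 5.08% of 12631 expressed protein-coding genes. The 4 were Kalrn, Baiap2, Cnksr2 and Iqsec2. In each it depended on the form made. Over coding forms annotated up to their stop, so without forms whose end is not annotated, those with the ligand took 74.9% and 74.6% of TPM for Kalrn, 84.6% and 83.4% for Baiap2, 60.8% and 56.5% for Cnksr2, and 87.1% and 91.7% for Iqsec2. In Iqsec1 and Arhgef7 the ligand was present in a minority of the same kind of forms, at 36.2% and 37.7% for Iqsec1 and 37.4% and 41.5% for Arhgef7. A match of these letters is a description of the annotated frames and shows no binding.

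Between the animals, the members differed little. A log2 ratio of replicate 1 over replicate 2 was taken on TMM-scaled CPM, and a difference of 25% (a log2 ratio of 0.32 in either direction) was used as the threshold because 1 library per animal allows no test. Of the 34 members, 0 were past it, compared with 13.0% of the 14169 genes whose normalised counts averaged 50 or more. The members are deeply counted, with 2098 to 38912 expected counts, and among the 2640 genes with at least the normalised count of the lowest member, 2.05% were past it. The members' share is therefore close to that of genes above this floor. The floor is the lowest member's count, and these genes were not matched to the members in depth. The members' median log2 ratio was -0.0025, and it was 0.0008 over all tested genes. Without the sign, the median was 0.037 for the members, 0.057 for genes above the floor and 0.108 for all tested genes. The ratio was within 0.1 for 30 of 34 members and for 73.3% of genes above the floor. Since depth was not matched, these values do not show that the members were steadier than other genes.

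The 4 members outside that range were Synpo, Baiap2, Arhgef7 and Wasf1. Synpo was higher in replicate 1 by 0.26 on the log2 scale, and its fold had an exact 95% binomial interval of 1.16 to 1.24. Baiap2 was 1.18-fold higher there, with an interval of 1.14 to 1.22, and Arhgef7 1.16-fold, with an interval of 1.11 to 1.21. Wasf1 went the other way, at 0.913-fold, with an interval of 0.876 to 0.952. These ratios use counts without the length correction in TPM, so they can differ from the TPM of the animals. Abi2, at 153 and 179 TPM, had a log2 ratio of 0.010. Arhgap32, at 220 and 211 TPM, had a fold of 0.938. For 17 members the interval left out equality, 9 of them higher in replicate 1 and 8 in replicate 2. The share of other genes with such an interval was not computed, so this count shows nothing particular to the members. Such intervals cover counting error only, since 1 library stands for each animal. By role, the median log2 ratio lay between -0.030 for calcium and calmodulin signalling and 0.030 for the MAGUK scaffolds.

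**Figure D5:**
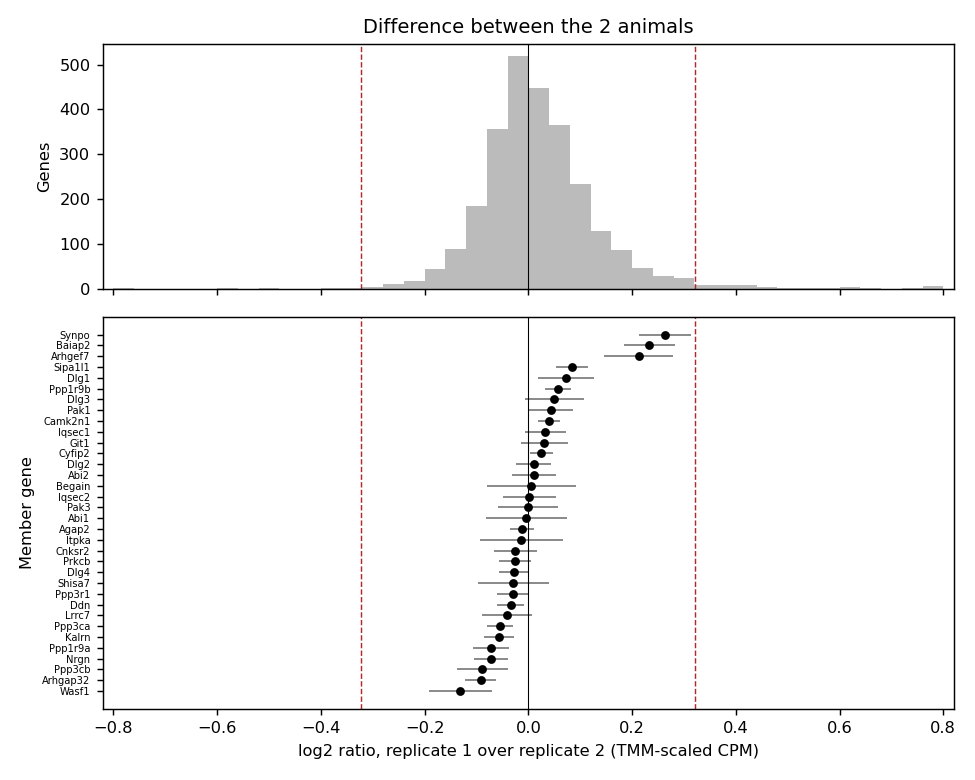
Top, number of genes by log2 ratio of replicate 1 over replicate 2 for the 2640 genes counted at least as deeply as the lowest member, with genes beyond the axis in the outermost bins. Bottom, the same ratio for each member with its exact 95% binomial interval (counting error only); the dashed lines mark a 25% difference, and no member's point passes them.

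Other genes of the synapse, listed with these results known, were alike in this respect. Of 15 further core scaffold and kinase genes, 1 was past the 25% threshold, with a list median log2 ratio of -0.017. That gene, Homer1, named after its values were seen, was at 177 and 121 TPM. Of 19 genes of glutamate receptor complexes, 20 further spine actin genes, 12 inhibitory postsynaptic genes and 16 presynaptic genes, 0 were past it, and their medians lay between -0.048 and 0. In level, Camk2a was the highest of the 15 core genes, at 1039 and 1077 TPM, above every member, and Homer3 the lowest, at 3.94 and 4.55 TPM, below every member. Median levels were 148 and 121 TPM for the 15 core genes and 264 and 273 TPM for the presynaptic genes, beside 137 and 139 TPM for the 34 members.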

How the data were processed

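Gene and transcript tables of each library give the authors' expected counts, TPM and FPKM, per the file headers. The transcript tables add each transcript's percent of its gene as the authors deposited it. Both rest on alignments to the GENCODE M21 transcriptome of mm10. A second deposited transcript table holds estimated counts and TPM derived from the reads. Programs and strand handling were not given in the sources used here. Overlapping genes are therefore uncertain. The deposited FPKM was used as an alternative level.

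Members were matched by symbol. All 34 are named, with family and pair genes where a share or ratio is given, and at most the highest and lowest gene of other lists, apart from Homer1, which was named after its values were seen. Transcripts named are leading ones that differ between readings or have extreme shares, plus near rivals; coding starts, stops and exons were added after values were seen. The members and lists were chosen with earlier results of these data known. Expected counts were rounded, 356 ribosomal RNA genes and the 96 spike-ins were left out, and log2 ratios used edgeR 4.0.16 with TMM scaling, a prior count of 2 and a filter of 50 normalised counts on average. DESeq2 1.42.0 size factors, spike-in scaling, the second quantification, a prior count of 0.5 and no filter were alternatives. The ratio calculation was tested on simulated data. Frames and exons were read from the GENCODE M21 transcripts on mm10, and identities came from global alignment in Biopython 1.88. The family share of Prkcb is not reported here. The second quantification's TPM was 0.90 and 1.27 times the first at the median protein-coding gene in replicates 1 and 2, so the text compares shares and ratios within a library across quantifications, and the median level only as an alternative in the closing section.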

Additional observations from a re-analysis of the deposited data

How the results depend on the processing

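The median level of the members, 138 TPM over the 2 animals, was 143 with the second quantification (120 and 167 in the animals, on scales that differ between the libraries) and 88.9 in FPKM, another unit, and from 137 to 139 leaving out either animal. The count past a 25% difference was 1 in place of 0 under spike-in scaling, where Synpo passed at a log2 ratio of 0.33 and the median of all genes moved to 0.072; the other 4 alternatives gave 0. The members held over 50% in 19 families by the mean under each alternative, and all 12 pair ratios kept their direction. A leading transcript held over 50% in 20 members, from 20 to 21 leaving out either animal, in 14 with the second quantification and in 23 with coding transcripts only. Of the leading shares, 26 of 34 moved by more than the spread between animals with the second quantification, as did 10 of 12 pair ratios. So did 11 of 21 exon inclusions, a result and alternative chosen after seeing the data. The cause was not tested. With 2 animals of 1 group, no test was run and no outlier could be judged. No paired analysis was possible because there is 1 group. Each member had at least 2098 expected counts in each library, while transcript shares rest on the authors' estimates.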
